A study of Mus musculus with 1 sample.

Results

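The host fibroblasts and pericytes of MC38 tumors were taken from a single-cell library as the cells rich in Col1a2, the gene of a chain of type I collagen. Of the 4640 cells that passed the quality filters, 64 met the rule, a share of 1.38% (1.06% to 1.76%). A UMI is a molecular tag that counts 1 captured transcript. The members were chosen by measured values, namely at least 2 UMIs of Col1a2, at least 5 UMIs of Col1a2 per 10000 UMIs of the cell, and fewer than 5 per 10000 of Tyrobp and Fcer1g together, a pair of adaptor genes of myeloid cells. Being selected on these counts, the cells' number and their levels of Col1a2, Tyrobp and Fcer1g are a description and support nothing. The 8 cells with at least 1 UMI of Rgs5, a pericyte gene, are reported apart as Rgs5-positive cells, and the other 56 are called Rgs5-negative.

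The study grew MC38 cells, a mouse colon carcinoma line, under the skin of female C57BL/6J mice aged 4 to 6 weeks and asked how the V-ATPase subunit ATP6V0A1 of the tumor cells shapes the immune cells around them. The injected cells carried a control shRNA (shNTC) or an shRNA against Atp6v0a1 (shv0a1), and material of 5 tumors of each arm was mixed in equal shares for single-cell sequencing. The library described here is labelled with the genotype WT and no shRNA, was taken as the shNTC pool, and is the only one used, since the knockdown pool was not analysed here. No tag links a cell to its tumor, so the library is 1 sample without replicates. For that reason no test was run, cells were never treated as replicates, and each range in brackets is an exact 95% interval (Clopper-Pearson for shares, Poisson for levels, conditional binomial for ratios) that covers counting error only.

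Fibroblasts build the fibrous matrix of connective tissue: they secrete type I and type III collagen, fibronectin and proteoglycans, together with the enzymes that trim and crosslink the fibers. Pericytes wrap small blood vessels, lie inside the same basement membrane as the endothelium, and carry the actin and myosin genes of contractile cells. In a transplanted tumor both are cells of the host, and fibroblasts of tumors are known for matrix-rich, contractile and inflammatory forms.

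The 10x Genomics 3' v3.1 library covered 32285 genes in 5307 called cells. A mitochondrial share above 20% removed 667 cells, among them 14 that met the rule otherwise, and 0 cells had fewer than 200 genes. The 64 fibroblasts and pericytes had between 529 and 129283 UMIs, with a median of 4602 and quartiles of 995.5 and 11202, and a median of 1810.5 genes. They were compared with 795 Col3a1-high tumor cells, which had at least 3 UMIs of the tumor-line genes Rhox5 and Shisal2b together, at least 10 UMIs of Col3a1 and fewer than 2 of Col1a2 per 10000, and a median of 34090 UMIs. Beside these stood 1067 tumor cells with less Col3a1 (median 49458 UMIs) and 1984 myeloid cells (median 7433.5 UMIs). The myeloid cells had at least 10 UMIs of Tyrobp and Fcer1g and fewer than 5 of Col1a2 per 10000, with fewer than 3 UMIs of Rhox5 and Shisal2b, and should not express fibroblast genes. Levels are counts of a gene pooled within a group and divided by the group's total, in UMIs per 1000000 (CPM). A count of 0 was read as fewer than 3 counts, a floor of 4.42 CPM in the 64 cells and of 0.104 CPM in the Col3a1-high tumor cells. The deepest of the 64 cells held 19.1% of their UMIs.

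Of 869 cells with any Col1a2 UMI, 74 passed the Col1a2 part of the rule and 10 of these were left out by Tyrobp and Fcer1g. The 5 members nearest the threshold had 5.95, 6.53, 6.95, 7.22 and 8.47 UMIs of Col1a2 per 10000. Just outside, the 5 highest cells with at least 2 UMIs of Col1a2 had 3.88, 3.74, 3.52, 3.50 and 3.37. A further 32 shallow cells (median 691.5 UMIs) reached the limit of 5 per 10000 with a single UMI of Col1a2, at up to 19.2, and were left out by the limit of 2 UMIs. Among cells with at least 2 UMIs, 9 cells were between 2.5 and 5 per 10000, of which 8 carried at least 3 UMIs of Rhox5 and Shisal2b, and 9 members were between 5 and 10. A further 20 members lay between 10 and 50, and 35 at 50 or more. In 12 members the rule rested on exactly 2 UMIs of Col1a2, and these cells were shallow, with a median of 742.5 UMIs.

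The label of the library names epithelial cells, and the 64 cells carried almost no epithelial transcripts. Of 11 epithelial genes 9 had 0 UMIs, among them Epcam, Cdh1, Krt8 and Krt18, and the list summed to 5 UMIs, 3 of them of Lgals4. The sum was 7.37 CPM against 7.26 CPM in the Col3a1-high tumor cells. Without Tyrobp and Fcer1g, the other 11 myeloid genes summed to 279 CPM against 26705 CPM in myeloid cells and 321 CPM in the Col3a1-high tumor cells, with Lyz2 the most abundant (43 UMIs) and Itgam at 0. The 9 T and NK genes gave 4 UMIs, with Cd3e, Cd8a and Nkg7 at 0. Of 11 adipocyte and muscle genes 9 were at 0, Adipoq, Plin1 and Myod1 among them, and the intermediate filament gene Des, which pericytes also use, made up 58 of the list's 60 UMIs. The endothelial list summed to 295 CPM against 53.6 CPM in the Col3a1-high tumor cells. Of its 200 UMIs, 114 were of the lipid carrier gene Fabp4, 49 of the receptor gene Flt1 and 22 of the junction gene Esam. The other 9 genes were at 5 UMIs or fewer, with 3 of Pecam1, 1 of Cdh5 and 0 of Cldn5, and of the 5 genes tested 3 were at least 4 times higher than in the Col3a1-high tumor cells and 1 was at 0.25 or less, against 6.39% and 1.0% of all genes tested. Among genes that the rule did not read, Col1a1 had UMIs in 56 of the 64 cells, Sparc in 57, Lyz2 in 29, C1qa in 26 and Acta2 in 20. The part of these other lineages in the results was not tested.

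The 5 marker genes lie on 4 chromosomes of GRCm38 in the GENCODE M21 annotation. Col1a2 (ENSMUSG00000029661) is at chr6:4504814-4541544 on the plus strand and Col1a1 (ENSMUSG00000001506), which encodes the partner chain, at chr11:94936224-94953042 on the plus strand. Mgp (ENSMUSG00000030218), the gene of a protein that keeps calcium salts out of soft tissue, is at chr6:136872435-136875823 on the minus strand. Rgs5 (ENSMUSG00000026678), whose product shortens G-protein signals, is at chr1:169655501-169695813 on the plus strand. Acta2 (ENSMUSG00000035783), smooth muscle actin, is at chr19:34241090-34255590 on the minus strand. RefSeq promoters, 250 bases before to 50 after the annotated start, were looked for in these genes and in Col3a1, Tagln and Myl9, and 5 of the 8 genes had an entry. Col1a1, Mgp and Tagln had none.

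Promoters are shown first for the collagen genes, since Col1a2 chose the cells and Col3a1 chose the tumor cells set against them. Capitals mark matches, on either strand, to the CCAAT box, the TATA sequence TATAAA or a CArG-like motif, a loose form of the CArG box to which serum response factor binds. The windows are on GRCm38.p6, Col1a2 at chr6:4505368-4505667 on the plus strand and Col3a1 at chr1:45311288-45311587 on the plus strand, each read 5' to 3'.
Col1a2: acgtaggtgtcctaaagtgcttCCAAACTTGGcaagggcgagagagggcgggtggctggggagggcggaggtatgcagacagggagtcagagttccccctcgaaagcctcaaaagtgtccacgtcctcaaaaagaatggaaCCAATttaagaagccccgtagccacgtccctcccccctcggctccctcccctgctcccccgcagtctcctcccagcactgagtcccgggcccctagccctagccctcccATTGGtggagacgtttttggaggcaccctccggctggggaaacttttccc
Col3a1: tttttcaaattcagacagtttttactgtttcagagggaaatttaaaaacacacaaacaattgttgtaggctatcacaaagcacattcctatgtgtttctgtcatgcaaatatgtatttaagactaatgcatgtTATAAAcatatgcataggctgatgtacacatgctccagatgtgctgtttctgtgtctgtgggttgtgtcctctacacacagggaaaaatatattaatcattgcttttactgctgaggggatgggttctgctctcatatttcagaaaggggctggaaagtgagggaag
Col1a2 held CCAAT at 109 bases before the start and its reverse complement at the start, with a CArG-like match 228 bases before it, and Col3a1 held TATAAA 117 bases before its start.

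The other promoters belong to the genes that set the Rgs5-positive cells apart, Rgs5 at chr1:169655251-169655550 on the plus strand, Acta2 at chr19:34255324-34255623 on the minus strand and Myl9, a myosin light chain, at chr2:156775214-156775513 on the plus strand. Capitals have the same meaning as in the collagen promoters.
Rgs5: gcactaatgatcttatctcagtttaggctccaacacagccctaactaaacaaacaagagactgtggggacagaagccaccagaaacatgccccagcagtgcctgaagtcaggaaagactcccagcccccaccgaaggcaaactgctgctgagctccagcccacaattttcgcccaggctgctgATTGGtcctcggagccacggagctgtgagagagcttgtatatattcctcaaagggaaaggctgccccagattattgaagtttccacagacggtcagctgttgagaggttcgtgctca
Acta2: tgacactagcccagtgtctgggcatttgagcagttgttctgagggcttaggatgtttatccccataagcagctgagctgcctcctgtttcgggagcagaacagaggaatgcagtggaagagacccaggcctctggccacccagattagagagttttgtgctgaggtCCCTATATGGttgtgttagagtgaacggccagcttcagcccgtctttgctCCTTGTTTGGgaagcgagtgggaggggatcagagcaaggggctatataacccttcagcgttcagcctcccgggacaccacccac
Myl9: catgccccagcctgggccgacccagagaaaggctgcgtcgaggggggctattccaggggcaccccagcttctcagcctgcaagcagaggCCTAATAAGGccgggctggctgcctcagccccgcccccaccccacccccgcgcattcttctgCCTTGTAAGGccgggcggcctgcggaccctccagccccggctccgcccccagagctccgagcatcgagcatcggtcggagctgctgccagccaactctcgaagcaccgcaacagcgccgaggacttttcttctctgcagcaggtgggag
Rgs5 held the reverse complement of CCAAT 67 bases before the start. The CArG-like form, which allows any letter at 1 of the 6 middle places of the box, was added after the strict form had been searched. Acta2 held 2 such matches, 84 and 34 bases before the start, and Myl9 held 2, of which the one 161 bases before the start was also a strict match and the other lay 99 bases before it. Of all 32851 mouse promoters of 300 bases, 37.4% held CCAAT, 13.6% TATAAA, 9.98% the CArG-like form and 1.63% the strict CArG box. A match is a description of letters and not a bound site.

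The 64 cells were 0.658% of all UMIs past the filters but held 76.4% of the UMIs of Col1a2, the gene that chose them. They also held 75.4% of the UMIs of Rgs5, 68.2% of Acta2 and 46.1% of Mgp, which the rule did not read. Of the Col1a1 UMIs they held 31.4% and of Col3a1 6.15%, so most transcripts of these fibrillar collagens were counted in other cells. Single cells differed widely. Col1a2 ranged from 5.95 to 391 per 10000 with a median of 62.0, Col1a1 from 0 to 585 with a median of 51.8, and Col3a1 from 0 to 523 with a median of 94.8. Mgp was found in 35 cells and was uneven, with a median of 1.11 per 10000, a highest value of 533, and 31.4% of its UMIs in a single cell.

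**Figure D1:**
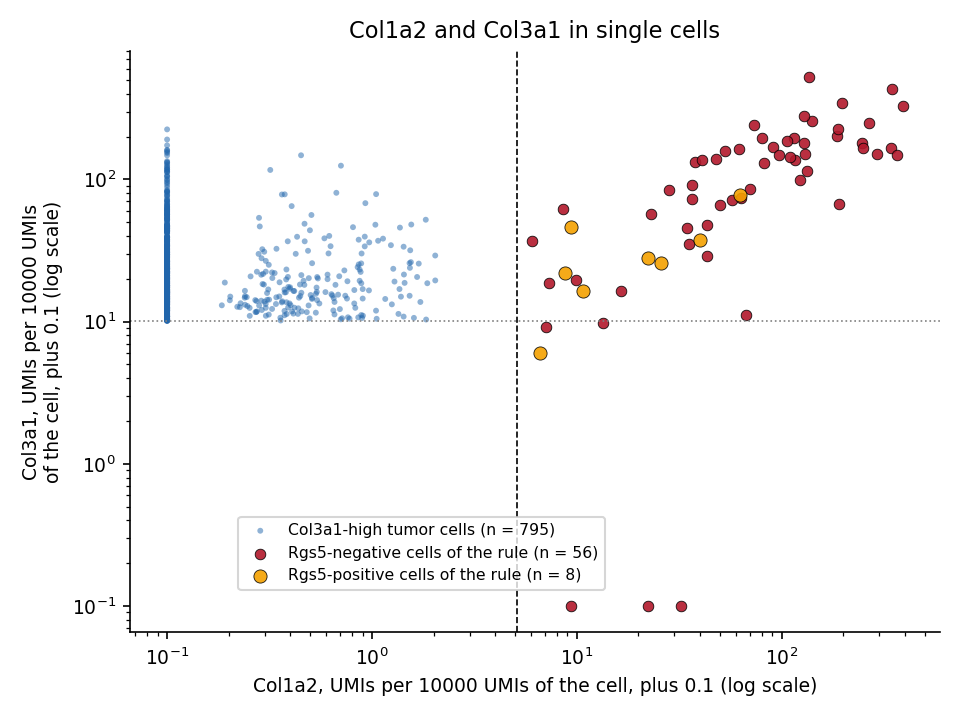
Each point is a cell, with Col1a2 on the x axis and Col3a1 on the y axis, both in UMIs per 10000 UMIs of the cell plus 0.1 on log scales; the dashed line is the Col1a2 limit of 5 and the dotted line the Col3a1 limit of 10 that chose the tumor cells. The gap in Col1a2 between the groups was set by the rules, and the groups overlap in Col3a1.

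The proportion of the collagen chains between groups is a description only, since its denominator, Col1a2, was used to choose the cells. In the 64 cells there were 0.996 UMIs of Col1a1 per UMI of Col1a2 (0.958 to 1.04), near parity of transcript counts, which do not measure the chains in the protein. The ratio was 15.1 (13.6 to 16.7) in the Col3a1-high tumor cells, 4.93 (4.55 to 5.34) in the other tumor cells and 2.99 (2.45 to 3.65) in myeloid cells. Each 3' UMI counts 1 transcript whatever its length, so no division by length was made. The rules set a lower limit on Col1a2 in the members and an upper limit in the other groups. The difference between groups was therefore fixed, at least in part, by the choice of cells and supports nothing. Within the members it was 0.990 (0.95 to 1.03) in Rgs5-negative and 1.04 (0.926 to 1.17) in Rgs5-positive cells. The latter value rests on the deepest Rgs5-positive cell, and was 1.43 (1.19 to 1.72) without it, a removal added once the data were seen. Over the 34 members with at least 20 UMIs of Col1a2 the ratio ran from 0.5 to 1.71 with a median of 1.13. Col3a1 per UMI of Col1a2 was 1.28 (1.23 to 1.33) in the 64 cells and ran from 0.350 to 3.85 over those 34 members.

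Across the transcriptome, 12204 genes had at least 20 UMIs over the 64 cells and the Col3a1-high tumor cells together. Of these, 780 genes (6.39%) had a level at least 4 times higher in the fibroblasts and pericytes and 122 (1.0%) a level of 0.25 or less, counts of size and not of a test. With levels averaged over cells these counts were 1067 and 786. The median ratio over all genes was 1.08, or 1.16 with genes at 0 placed at their bound. Of the 780 genes, 722 were also at least 4 times higher than in the other tumor cells, 387 than in myeloid cells and 376 than in all 3 groups. For 443 genes the whole interval lay above 4, and for 8 of the 122 it lay below 0.25. At the depth of the 64 cells, 5578 of the genes were abundant enough in tumor cells to be called lower. Each list of genes described next is read against these shares and this median.

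Fibrillar collagens stood at 26935 CPM for the 9 genes together against 3163 CPM in the Col3a1-high tumor cells. All 8 fibrillar genes that could be tested were above 1, 4 were at least 4 times higher and the median ratio was 11.6. The sum and these counts include Col1a2, whose difference was set by the rules. Without it the sum was 19407 against 3149 CPM, with 3 of 7 genes at least 4 times higher and a median of 3.97. Col1a1 was at 7496 CPM against 218 CPM, 34.4 times higher (33.1 to 35.7). Col5a2, a chain of the type V collagen that seeds thin fibrils, was at 1082 CPM and 19.3 times higher (17.7 to 21.1). Its partner Col5a1 was closer, at 790.0 against 254 CPM and 3.12 times higher (2.85 to 3.40). Col3a1, by which the tumor cells had been chosen, was at 9644 CPM and still 3.97 times higher (3.87 to 4.07).

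Among 11 other collagens 6 were at least 4 times higher and the median ratio was 5.10. The collagens that decorate fibrils separated the groups most: Col12a1 was at 459.9 CPM and 1104 times higher (623 to 2159), and Col14a1 at 560.1 CPM and 896 times higher (559 to 1528). The chains of type VI collagen, which forms beaded filaments around cells, were shared, with Col6a1 at 821 against 639 CPM, 1.28 times higher (1.18 to 1.40). The basement membrane chains Col4a1 (741 CPM, ratio 5.10, 4.64 to 5.59) and Col18a1 (196 CPM, ratio 21, 16.9 to 25.9) lay between these.

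Matrix glycoproteins and proteoglycans gave 20 of 24 genes at least 4 times higher and a median ratio of 29.7. Elastin, Eln, was at 817 CPM and 1069 times higher (699 to 1720), Fbln2 at 1016 CPM and 389.9 times higher (307 to 502), and the microfibril gene Mfap5 at 1300 CPM and 196 times higher (167 to 230.4). Sparc, a collagen-binding glycoprotein, was the list's most abundant gene at 8339 CPM, 6.98 times higher (6.79 to 7.18). The small proteoglycans Bgn and Dcn went apart, Bgn at 2463 CPM and 43.7 times higher (40.8 to 46.8), and Dcn at 1565 against 2703 CPM, a ratio of 0.579 (0.545 to 0.615). Periostin, Postn, was at 2004 CPM and 15.6 times higher (14.7 to 16.6), and Fn1, fibronectin, at 3310 CPM and 2.81 times higher (2.69 to 2.93). Mgp was at 1660 CPM and 91.4 times higher (82.3 to 102), or 216 times when the levels of single cells were averaged.

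Of 14 processing and crosslinking genes 7 were at least 4 times higher, and the median was 3.09. Crosslinking oxidases were among these, with Lox at 671 CPM and 603 times higher (421 to 893), or 1177 times with doublets removed, and Loxl1 at 44.4 times higher (37.1 to 53.1). Adamts2, which cuts the amino-terminal propeptide from procollagen, had 135 UMIs against 3 in the far deeper tumor cells, a ratio of 1910 (640 to 9377). Other genes of the list differed less. The collagen chaperone gene Serpinh1 was 1.99 times higher (1.88 to 2.11), and P4ha1 and Plod2, hydroxylase genes of collagen, had ratios of 0.676 (0.534 to 0.844) and 0.896 (0.730 to 1.09). Of 15 proteases and inhibitors 9 were at least 4 times higher, with a median of 4.55. Stromelysin, Mmp3, was at 488 CPM and 562 times higher (374 to 881), or 933 times as a mean over cells, the gelatinase gene Mmp2 9.37 times higher (8.21 to 10.7) and the inhibitor gene Timp1 8.67 times higher (8.04 to 9.34), whereas Timp2 had a ratio of 0.661 (0.605 to 0.721). Fap, a surface protease of activated fibroblasts, had 27 UMIs in 17 cells and 2 UMIs in the tumor cells (ratio 573, 144 to 4972).

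**Figure D2:**
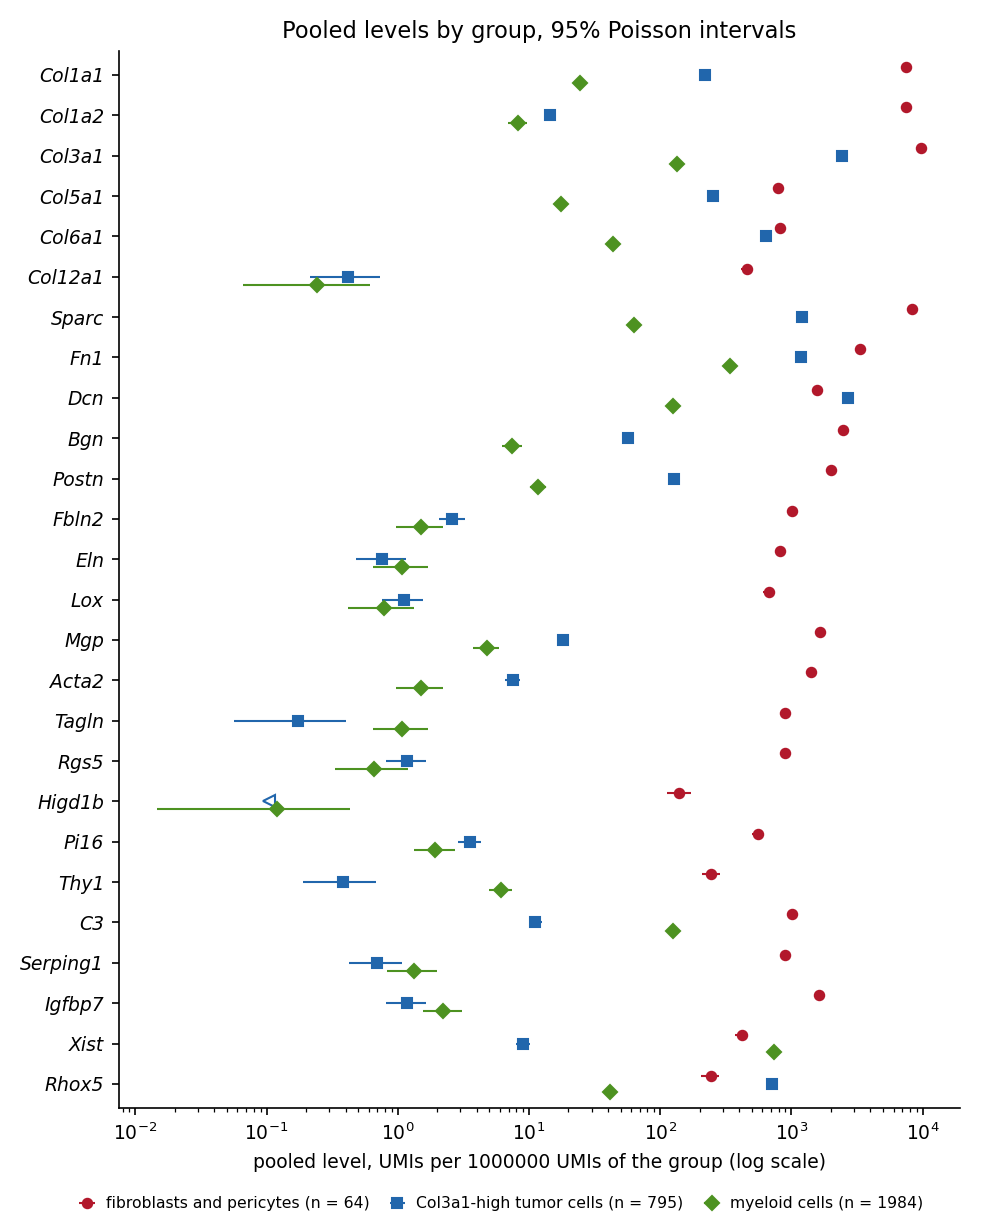
Pooled levels of 26 genes in UMIs per 1000000 UMIs of the group on a log scale, for the 64 fibroblasts and pericytes (circles), the 795 Col3a1-high tumor cells (squares) and the 1984 myeloid cells (diamonds), with 95% Poisson intervals and an open triangle at the floor of 3 counts where a group had 0 UMIs. Col12a1, Eln, Lox, Tagln and Igfbp7 differ most between the 64 cells and the tumor cells, while Col6a1 and Fn1 lie close and Dcn, Rhox5 and Xist differ in order between the groups.

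Of 18 genes used to tell fibroblasts from other cells, 8 were at least 4 times higher than in these tumor cells, with a median of 2.40. Pi16, a marker of adventitial fibroblasts, was at 553 CPM and 156 times higher (125 to 196), Thy1 at 243 CPM and 637 times higher (347 to 1300), and Dpt, dermatopontin, at 417 CPM and 18.5 times higher (16.1 to 21.3). Other genes of the list were as high in the tumor cells. Vim, the intermediate filament of mesenchymal cells, had a ratio of 1.11 (1.07 to 1.16), Ly6a of 1.16 (1.09 to 1.23) and Ly6c1 of 0.976 (0.891 to 1.07). S100a4, also called fibroblast-specific protein, was lower at 1182 against 3400 CPM, a ratio of 0.348 (0.324 to 0.373), and 0.164 without the 5 members with at least 3 tumor-gene UMIs. Lrrc15, a gene of matrix-rich tumor fibroblasts, had 56 UMIs in 17 cells and was 169.8 times higher (93.3 to 330.3).

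Complement genes, which tag microbes and debris, had 9 of 12 at least 4 times higher and a median of 30.6. Serping1, the inhibitor of the C1 proteases, was at 899 CPM and 1295 times higher (831 to 2134), and C3, the central component, at 1005 CPM and 89.9 times higher (78.6 to 103). C4b (37.1, 31.9 to 43.2) and Cfb (28.5, 24.5 to 33.0), which supply the C3-cutting enzymes, were also higher. The remaining 3 genes, C1qa, C1qb and C1qc, are made by macrophages, and their ratios lay between 0.625 and 0.937.

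Inflammatory fibroblast genes gave 11 of 17 at least 4 times higher with a median of 7.97. Of the 17, 16 were above 1. Cxcl12, which holds leukocytes in tissue, had 69 UMIs and a ratio of 732 (273 to 2763). Its size was unsteady, at 442 without the mitochondrial limit, 478 without the cell with the most Saa3 and 2037 as a mean over cells. The eotaxin gene Ccl11 had 73 UMIs against 3 (1033, 339.7 to 5124) and Cxcl14 238 UMIs (215, 157 to 301). Ccl2, the main monocyte attractant, was the exception at 715 against 1699 CPM, a ratio of 0.421 (0.384 to 0.460), or 0.648 as a mean over cells. The acute-phase gene Saa3 had the highest count of the list, 1068 UMIs and a ratio of 3022 (1824 to 5418), but 71.4% of these UMIs were in 1 cell of 15959 UMIs. Leaving out that cell, which was chosen after seeing the data, gave a ratio of 884, whereas the mean over cells gave 5196. The same cell held 401 UMIs of Hp, haptoglobin, 89.5% of that gene's UMIs.

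Of the genes of immune signaling that many cell types share, most had ratios between 0.25 and 4. None of 14 interferon response genes was at least 4 times higher or 0.25 or lower. That count cannot set the list apart, since few of all genes tested passed these limits. The median of the list was 0.669, against 1.08 over all genes. Cxcl9 was at 549.8 against 211 CPM and 2.60 times higher (2.34 to 2.89), while Cxcl10 (0.275, 0.240 to 0.313) and Isg15 (0.289, 0.192 to 0.418) were near the lower limit. In a list of 10 antigen presentation genes and markers of antigen-presenting fibroblasts the median was 0.986. Its 1 gene called higher was a marker, the protease inhibitor gene Slpi with 3 UMIs (7.07, 1.33 to 24.2). The class I genes H2-K1 (0.541, 0.507 to 0.576) and B2m (0.648, 0.616 to 0.682) were lower than in the tumor cells. Class II genes were near the level of the tumor cells and far below myeloid cells, with Cd74 at 189 CPM against 171 and 12749 CPM, a level at which free RNA of myeloid cells was not told apart from transcription.

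Of 25 genes of the TGF-beta pathway 7 were at least 4 times higher, with a median of 2.09. Among these 7, Tgfbr2, the receptor that binds the ligand first, was at 277 CPM and 6.13 times higher (5.23 to 7.15), or 9.45 times as a mean over cells, and Ltbp2, which anchors to elastic microfibrils, had 140 UMIs against 5 (1188, 497 to 3717). Ccn2, a matricellular gene that TGF-beta induces, had 467 UMIs against 15 (1321, 793 to 2380), or 654 as a mean over cells. The ligand gene Tgfb1 was at 78.1 against 61.1 CPM over the 64 cells together (1.28, 0.954 to 1.68). That level joins 203 CPM in the 8 Rgs5-positive cells and 32.2 CPM in the 56 Rgs5-negative cells. The signal carriers Smad2, Smad3 and Smad4 had ratios between 1.11 and 2.26. Of 17 growth factors, binding proteins and receptors 8 were at least 4 times higher, with a median of 3.56. Igfbp7 was the most abundant of them at 1614 CPM and 1367 times higher (972 to 1984), and Igf1 was 115 times higher (80.6 to 166). Vegfa was not, at 53.1 against 74.7 CPM (0.710, 0.496 to 0.987).

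The 15 genes with the highest ratios against Col3a1-high tumor cells, among genes with at least 50 UMIs and found in at least 20% of the 64 cells, began with Tagln. This gene of an actin-binding protein of smooth muscle had 601 UMIs against 5 (5102, 2174 to 15769), with 45.1% of its UMIs in 1 cell. Its ratio was 2471 with at least 10 Col1a2 UMIs per 10000 and 3160.2 as a mean over cells, so its rank before Svep1 is not firm. The others were, in order, Svep1, P4ha3, Sfrp2, Saa3, Pamr1, Hp, Sfrp1, Adamts2, Nid1, Serpine2, Cthrc1, Mfap2, Cygb and Igfbp7. The places of Saa3 and Hp rest on 1 cell, without which Saa3 would be at 884 and Hp would have 47 UMIs. Serpine2 had 114 of its 191 UMIs in 1 Rgs5-positive cell, so its place is not firm either. Svep1, a large adhesion protein, had 118 UMIs against 1 (5008, 882 to 199472), and P4ha3, a collagen hydroxylase gene, 94 against 1 (3990, 699 to 159238). Sfrp2 (3113, 1051 to 15209) and Sfrp1 (1952, 654 to 9583) encode secreted binders of Wnt proteins. Among these 15, the largest count after Igfbp7, Saa3 and Tagln belonged to Cthrc1, a gene of matrix-producing fibroblasts, with 492 UMIs in 35 cells (1606, 931 to 3038). Of the 10 genes with the lowest ratios, Insl6, an insulin-like peptide gene, had 1 UMI against 2939 (0.0144, 0.000366 to 0.0805), Crabp2, a retinoic acid carrier, 2 against 1408 (0.0603, 0.00729 to 0.218) and Shisal2b, which chose the tumor cells, 9 against 4314. The other 7 were Itgb4, Slc25a13, Cbx8, Acp6, Dnajc22, Tnip3 and Ubd.

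The 56 Rgs5-negative cells, whose depth ran from 529 to 129283 UMIs, differed in the genes found. Pi16 was found in 27 of the 64 cells, all of them Rgs5-negative, and 24 of these also had C3 and 22 had Dpt. Postn was found in 45 cells, and 34 of the 35 cells with Cthrc1 were among them. Postn also had UMIs in 26 of the 27 cells with Pi16. At full depth Postn had UMIs in 44.4% of Col3a1-high tumor cells (median 34090 UMIs) and 9.12% of myeloid cells (median 7433.5 UMIs), and Pi16 in 7.55% and 1.56%. With each cell thinned to 1000 UMIs, Postn was found in 64.6% of the 48 members of that depth against 8.75% and 2.43%, and Pi16 in 33.3% against 0.253% and 0.277%. Saa3 was found in 17 cells and Hp in 13, with 12 cells in common. Acta2 was found in 13 Rgs5-negative cells, where it had 120 UMIs, and 91 of these were in 1 cell of 42219 UMIs that also had 76 UMIs of Tagln, 219 of Postn, 137 of Cthrc1 and 0 of Rgs5. That cell was singled out after its values were seen. A deeper cell has more chance to show any gene, and the part of depth in these overlaps among members was not tested. Whether free RNA added to these counts of cells was not tested either.

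**Figure D3:**
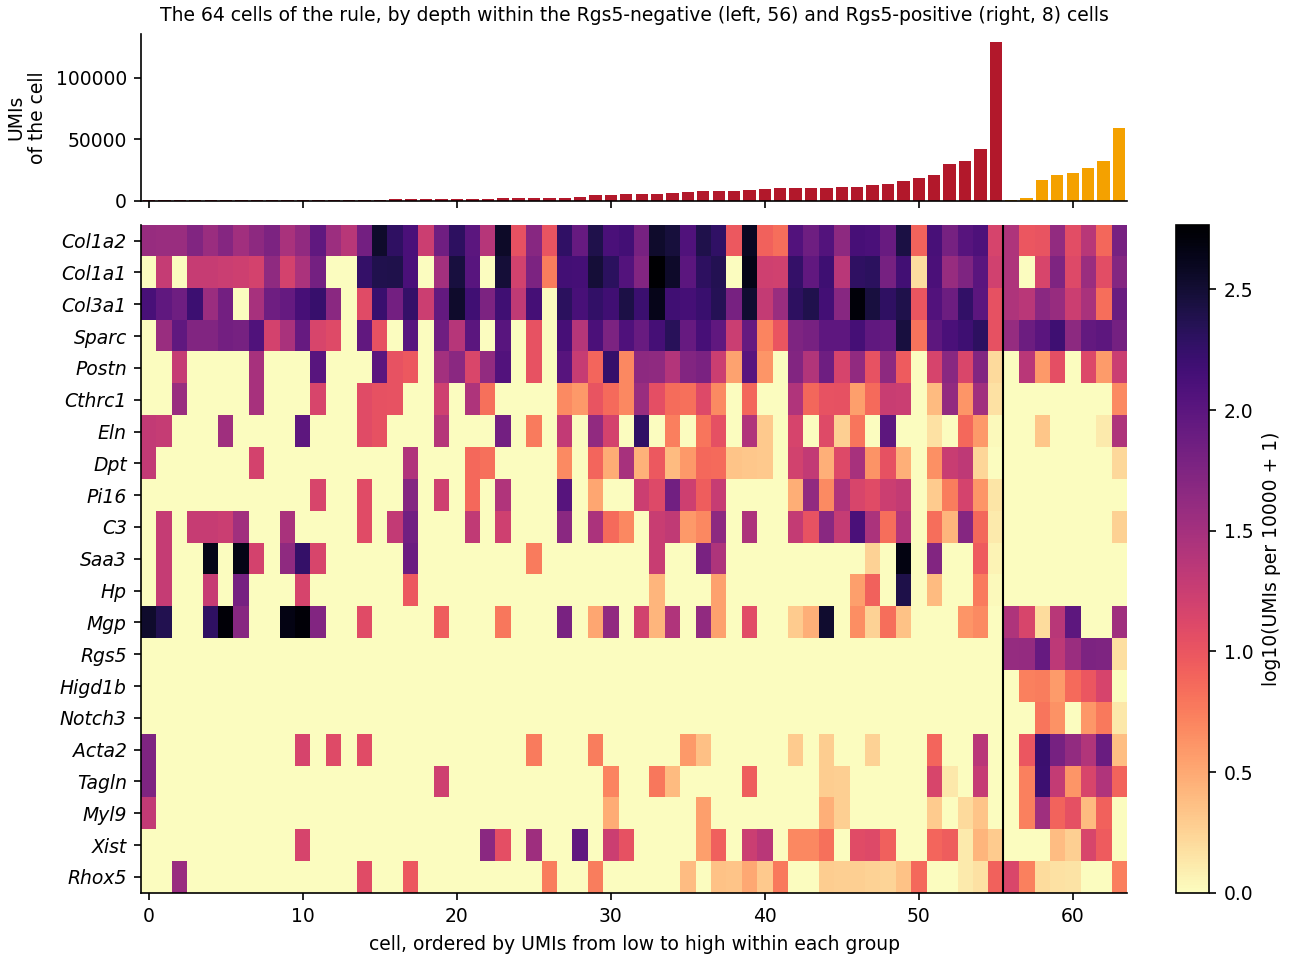
Each column is 1 of the 64 cells, ordered from low to high depth within the 56 Rgs5-negative (left) and 8 Rgs5-positive cells (right); bars give the UMIs of the cell and colors the log10 of UMIs per 10000 plus 1 of 21 genes. Rgs5, Higd1b and Notch3 are at 0 in the Rgs5-negative columns, Rgs5 by choice and the others by count, and Pi16, Saa3 and Hp are at 0 in the Rgs5-positive columns.

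At least 1 UMI of Rgs5 was found in 8 of the 64 cells, a share of 12.5%. The share was 2.01% in the Col3a1-high tumor cells (median 34090 UMIs) and 0.554% in myeloid cells (median 7433.5 UMIs), neither of which should express the gene. With each cell thinned to 1000 UMIs it was 6 of 48 members (12.5%, 4.73% to 25.2%, with 16 shallower cells left out), 0.127% of the tumor cells and 0.111% of the myeloid cells. The Rgs5-positive cells were the deeper ones, with a median of 21951.5 UMIs against 3032, and 1 cell held 32.5% of their UMIs. The part of depth in the choice of these cells was not tested beyond the thinning.

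The 8 cells differed in their contractile genes. In 5 cells of 17267 to 32151 UMIs both Rgs5 and Acta2 were high. The cell of 17267 UMIs had 141 UMIs of Rgs5, 281 of Acta2 and 271 of Tagln. The cell of 32151 UMIs had 179, 253 and 82 of the same genes, and the cell of 26516 UMIs had 152, 66 and 35. Per 10000 UMIs, in the order of these cells, Rgs5 was at 81.7, 55.7 and 57.3 and Acta2 at 163, 78.7 and 24.9. The cell with the most Rgs5 thus also had the most Acta2, but the levels did not run in step otherwise. Of Rgs5, Acta2 and Tagln, the cell of 21249 UMIs had 44, 134 and 40 UMIs. The cell of 22654 UMIs had 80, 92 and 7, beside 218 UMIs of Mgp. These 5 cells had between 16 and 85 UMIs of Col1a2, so pericytes met the rule at low to middle levels of the gene that chose them. The 2 shallow cells, of 776 and 2301 UMIs, had 3 and 9 UMIs of Rgs5 and 2 of Col1a2 each. The deepest, of 59075 UMIs, was unlike the rest: it had 3 UMIs of Rgs5 (0.508 per 10000), 8 of Acta2, 368 of Col1a2, 154 of Eln and 28 of Rhox5 and Shisal2b.

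Pericyte genes followed Rgs5 closely. Of the 8 Rgs5-positive cells, 6 had Higd1b and 5 had Notch3, and no Rgs5-negative cell had a UMI of either. Of 14 pericyte genes tested between the Rgs5-positive and Rgs5-negative cells 12 were at least 2 times higher, against 372 of all 4782 genes tested (7.78%), where the median over all genes was 0.937. At 0.5 or less were 824 of all genes (17.2%). With levels averaged over cells these counts over all genes were 833 and 1259. The pericyte list holds Rgs5, which split the cells, and without it 11 of 13 were at least 2 times higher, with a median of 40.9, or 25.5 with genes at 0 placed at their bound. Higd1b, a mitochondrial membrane gene of pericytes, was at 522 CPM and at least 86.4-fold higher, Mcam, an adhesion receptor, at 500.03 CPM and at least 82.8-fold higher, and the receptor gene Notch3 at 231 CPM and at least 38.2-fold higher, each against a floor of 6.04 CPM over the Rgs5-negative cells. Kcnj8 and Abcc9, which form the potassium channel of pericytes, had 45 UMIs against 3 (40.9, 13.1 to 206) and 28 UMIs against 0 (at least 25.5-fold). The growth factor receptor gene Pdgfrb was found in both groups, at 434 and 96.7 CPM (4.49, 3.10 to 6.57). Against Col3a1-high tumor cells 13 of 14 pericyte genes were at least 4 times higher, with a median of 596, or 384 with bounds, and Rgs5 at 901 CPM was 763 times higher (539.9 to 1112), 415 with at least 10 Col1a2 UMIs per 10000 and 369 as a mean over cells.

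Contractile genes were also higher in Rgs5-positive cells, 12 of 13 at least 2 times with a median of 19, against 7.78% of all genes. Of 14 interferon response genes 5 were at least 2 times higher and 1 at 0.5 or less, with a median of 1.83. Over all genes the shares were 7.78% and 17.2%. Among the contractile genes, Acta2 was at 4594 against 242 CPM, 19 times higher (15.7 to 23.2), and 836 of its 956 UMIs were in the 8 cells. Tagln was 10.5 times higher (8.6 to 12.9) and Myl9 21 times higher (12.4 to 37.8). All 3 belong to the actin and myosin machinery of smooth muscle. The kinase gene Mylk, which switches myosin on, had 72 UMIs against 2 (98.2, 26.2 to 826), and Lmod1, an actin nucleator, 23 against 0 (at least 20.9-fold). The size of these ratios depended on a few cells. With at least 10 Col1a2 UMIs per 10000, which leaves out 3 Rgs5-positive cells, among them those with 281 and 253 UMIs of Acta2, the ratio was 8.55 for Acta2 and 3.39 for Tagln, and with a limit of 2 per 10000 on Tyrobp and Fcer1g it was 72.9 and 25. A limit of 5 Rgs5 UMIs per 10000, chosen after seeing the data, gave 29.2 for Acta2. Against Col3a1-high tumor cells 8 of 13 contractile genes were at least 4 times higher with a median of 66.8, Acta2 at 187 times (161 to 218), or 96.8 times with at least 10 Col1a2 UMIs per 10000 and 120.2 times as a mean over cells.

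Of 11 other collagens 5 were at least 2 times higher in the Rgs5-positive cells and 2 were at 0.5 or less. Their median was 1.31, and the shares over all genes were 7.78% and 17.2%. The endothelial list was higher too, at 1011 against 32.2 CPM, and its part here was not tested. Basement membrane collagens were among the 5 higher genes. Col4a1 was at 2275 against 179 CPM (12.7, 10.1 to 16.1), or 5.49 times higher as a mean over cells, Col18a1 at 626 against 38.3 CPM (16.4, 10.0 to 28.2) and Col15a1 at 643 against 78.6 CPM (8.18, 5.65 to 12.1). Among fibrillar collagens 0 of 8 were at least 2 times higher and 3 were at 0.5 or less, against 824 of 4782 genes (17.2%). Without Col1a2, which chose the members, 2 of 7 were at 0.5 or less, and without Col3a1 as well 1 of 6, while Col5a3 was 1.47 times higher (1.10 to 1.97). Col1a1 was at 3297 against 9035 CPM (0.365, 0.335 to 0.397), or 0.192 without the cells with at least 3 tumor-gene UMIs and 0.233 as a mean over cells. Sparc was level, at 8462 and 8294 CPM (1.02, 0.962 to 1.08). Mgp had no firm direction. It was 1.92 times higher pooled (1.70 to 2.16), 1.13 times without the cells with at least 3 tumor-gene UMIs, and lower at 0.448 as a mean over cells.

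Fibroblast, complement and inflammatory genes were on the Rgs5-negative side. Of 18 fibroblast identity genes 12 had a ratio of 0.5 or less, against 17.2% of all genes, and the median was 0.249. Pi16 had 0 UMIs in the Rgs5-positive cells against 375, at most 0.0218 of the level with the floor of 16.5 CPM. Pdgfra, the receptor that marks fibroblasts, had 1 UMI against 71 (0.0384, 0.000959 to 0.221), with alternatives between 0.00639 and 0.188, and Dpt 4 against 279 (0.0391, 0.0106 to 0.101). Thy1, at 4.65 times higher (3.36 to 6.49), or 7.69 times as a mean over cells, and Vim, at 1.72 times higher (1.58 to 1.87), were on the Rgs5-positive side. Complement had 6 of 12 genes at 0.5 or less, with C3 at 27.5 against 1364 CPM (0.0201, 0.00652 to 0.0473), or 0.00738 as a mean over cells, and inflammatory genes 10 of 14. Matrix glycoproteins had 14 of 24 at 0.5 or less. Collagen processing genes had 3 of 14, near the 17.2% of all genes, with a median of 0.904. Among the latter, Lox was at 0.0930 (0.0516 to 0.155) and Loxl2 at 1.42 (0.942 to 2.10). Tgfbr2 had 5 UMIs against 183 (0.0745, 0.0239 to 0.177), with alternatives between 0.0308 and 0.119. The ligand gene Tgfb1 was on the opposite side, at 203 against 32.2 CPM (6.31, 3.42 to 12.1), as were Pdgfa (9.55, 5.58 to 17.1) and the chemokine gene Cxcl9 (5.90, 4.72 to 7.40). A single cell held 89 of the 255 Cxcl9 UMIs in the Rgs5-positive cells, and another 78 of the 118 in the Rgs5-negative cells.

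**Figure D4:**
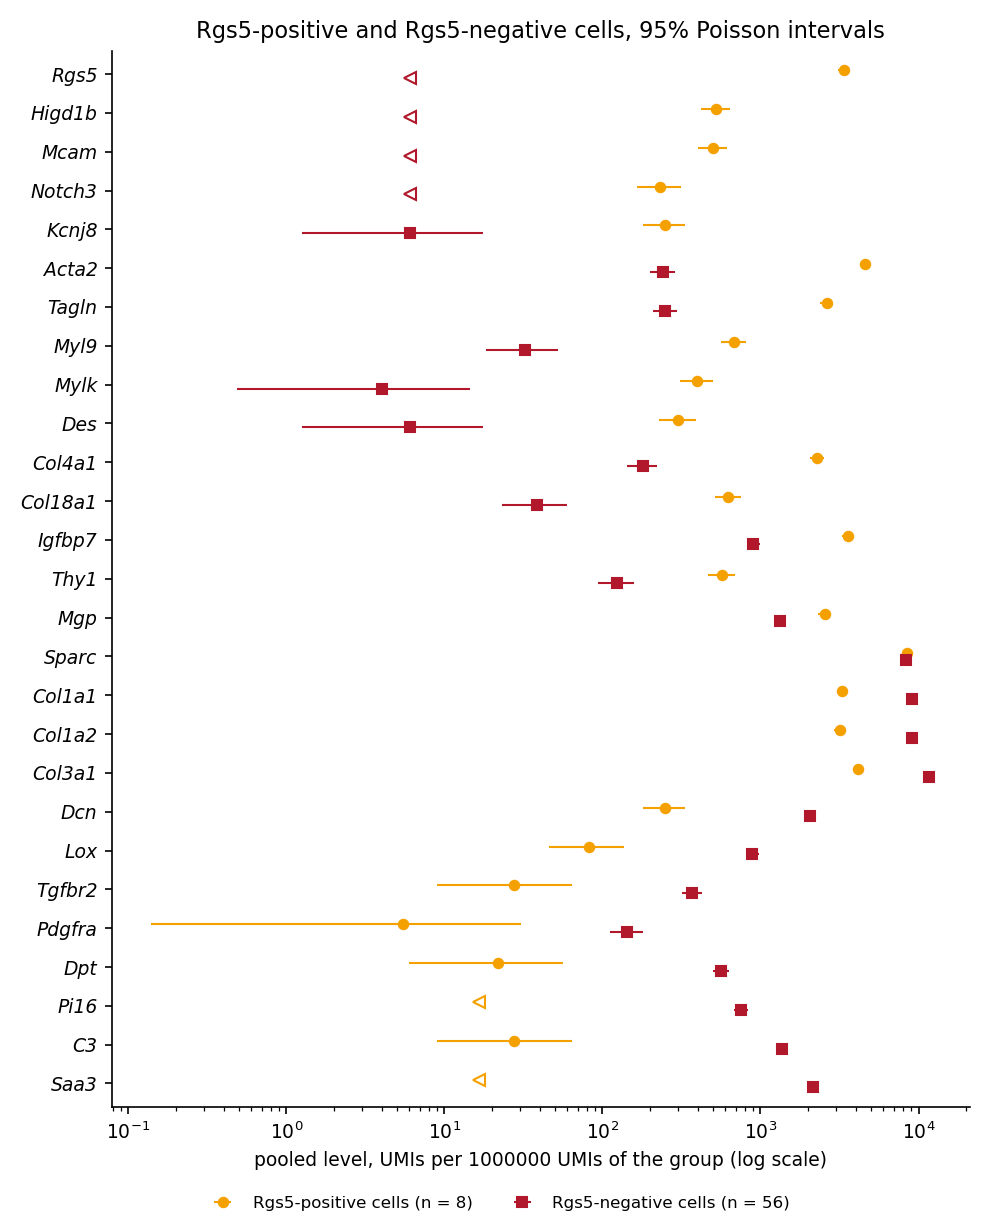
Pooled levels of 27 genes in UMIs per 1000000 UMIs of the group on a log scale, for the 8 Rgs5-positive cells (circles) and the 56 Rgs5-negative cells (squares), with 95% Poisson intervals and an open triangle at the floor of 3 counts where a group had 0 UMIs. Pericyte and contractile genes and Col4a1 lie to the right in the Rgs5-positive cells, Sparc is level, and the fibrillar collagens shown and the genes from Dcn to Saa3 lie to the right in the Rgs5-negative cells.

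The 10 genes with the highest Rgs5-positive ratios among genes with at least 50 UMIs and found in at least 20% of those cells were Rgs5, Ppp1r14a, Cox4i2, Sept4, Fabp4, Mylk, Higd1b, Mcam, Itga1 and Des. Ppp1r14a, an inhibitor of the phosphatase that relaxes smooth muscle, had 83 UMIs against 1 (226, 39.5 to 9050), and Itga1, a collagen-binding integrin, 147 against 7 (57.3, 27.1 to 145). Of the 114 UMIs of Fabp4, 72 were in 1 Rgs5-positive cell. Beside it, Flt1 had 48 UMIs against 1 and Esam 22 against 0, while Pecam1, Cdh5 and Cldn5 had 0 UMIs in the Rgs5-positive cells. The part of endothelial transcripts in the Rgs5-positive levels was not tested further. The 10 lowest were Saa3, Ly6c1, Hp, C3, Pi16, Igfbp5, Ackr3, Lbp, Prg4 and Cxcl14. Saa3 had 0 UMIs against 1068 and Igfbp5 0 against 299, and Ly6c1 2 against 500 (0.0109, 0.00132 to 0.0396).

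Xist, the RNA that coats the inactive X chromosome of female cells, gave a measure of host origin that the rule did not use. It was at 417 CPM (369.9 to 469) in the 64 cells, with UMIs in 26 of them, at 742 CPM in myeloid cells and at 9.06 CPM in Col3a1-high tumor cells, 46.0 times higher than in the last (38.8 to 54.7), or 109 times with doublets removed. Xist had UMIs in 40.6% of the members (median 4602 UMIs), 71.5% of myeloid cells (median 7433.5) and 10.9% of Col3a1-high tumor cells (median 34090). Rhox5 and Shisal2b, which mark the tumor line, had 0 UMIs in 36 members and at least 3 in 5 members. In the 59 members below 3, Xist was at 586 CPM (518 to 660.2) and the tumor genes at 58.6 CPM (38.6 to 85.3). In myeloid cells the tumor genes were at 57.0 CPM (53.4 to 60.7), and both groups were limited to fewer than 3 UMIs of these genes per cell, so that this similarity was set by the choice of cells. In the 5 members with at least 3, Xist was at 59.7 CPM (31.8 to 102) and the tumor genes at 671 CPM (566 to 789), against 857 CPM in Col3a1-high tumor cells. Together these 5 made up 217703 of the members' 678480 UMIs. The deepest cell, with 93 UMIs of the tumor genes beside 173 of Col1a2, 197 of Col1a1 and 13 of Xist, was one of them. The doublet score removed 1 of these 5 cells. Tumor cells and members with free tumor RNA cannot be told apart here. Without them the count of genes at least 4 times higher was 998 and that of genes at 0.25 or less 224.

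**Figure D5:**
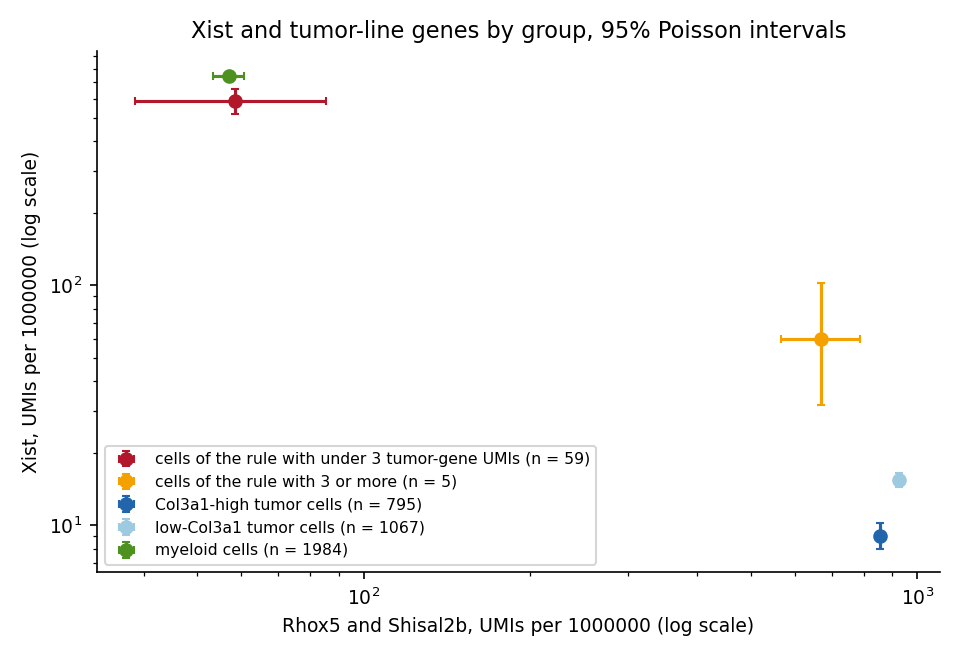
Pooled levels of Xist (y axis) and of Rhox5 and Shisal2b together (x axis) in UMIs per 1000000 UMIs of the group on log scales, with 95% Poisson intervals, for the members with fewer than 3 and with at least 3 UMIs of Rhox5 and Shisal2b, the tumor cells and the myeloid cells. The x axis repeats the genes that chose the tumor groups and split the members, so the place of the groups on it was set in part by that choice, while on the y axis the 59 members below 3 lie near the myeloid cells.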

How the data were processed

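The values used are the UMI counts per gene and called cell that the authors deposited, not normalized. Cell Ranger 5.0.1 stands in their header and V3 in the methods of the study, with the GRCm38/mm10 genome. The members and the gene lists were chosen with earlier results of these data known, and groups rebuilt from marker genes can differ from those of the study. Cells with fewer than 200 genes or over 20% mitochondrial UMIs were left out. Doublets were kept. As an alternative, 172 cells with the highest scores among simulated doublets (2 per cell) were removed, a number set by a doublet rate of 0.8% for every 1000 cells. Levels were pooled over the cells of a group, and genes with at least 20 UMIs over both groups were tested for size, a ratio of 4 or 0.25 against tumor cells and of 2 or 0.5 between Rgs5-positive and Rgs5-negative cells. Where a count was 0, the ratio was taken against a floor of 3 counts over the group. The genes named were the 5 markers, the 327 genes of 24 lists with at least 20 UMIs, and the highest and lowest ratios (15 and 10 genes against tumor cells, 10 and 10 between Rgs5-positive and Rgs5-negative cells) among genes with at least 50 UMIs and a UMI in 20% of the cells of the higher group. Other genes and single cells were named after their values were seen. Alternatives were other limits on mitochondrial UMIs, genes per cell, Col1a2, Tyrobp and Fcer1g, on tumor-gene UMIs and on UMIs per gene, doublets removed, levels averaged over cells, thinning to 1000 UMIs, and whole intervals in place of ratios. Chosen after seeing the data were leaving out cells under 1000 UMIs, the deepest cell or the cell with the most Saa3, and a Rgs5 limit of 5 per 10000. No paired analysis was possible because there is 1 library. Positions came from GENCODE M21 and promoters from RefSeq. The processing was tested on simulated data. Scripts ran in Python 3.11.15 using scikit-learn 1.9.0 for doublet scores, pandas 2.3.3, scipy 1.17.1, matplotlib 3.10.9 and numpy 2.4.6.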

Additional observations from a re-analysis of the deposited data

How the results depend on the processing

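Over 87 alternatives to the 6 counts and shares, 74 values stayed within 1.5 times the count or within the interval of the share, and 13 moved beyond it. The number of members ran from 48 to 78 and the share with Rgs5 from 9.09% to 15.1%. The genes at least 4 times higher than in Col3a1-high tumor cells numbered 483 with at least 50 UMIs per gene, 1759 with at least 1 UMI, and 443 with the whole interval beyond 4, by construction of these limits. Genes at 0.25 or less numbered 74 with a Col1a2 limit of 2.5, 224 without cells with at least 3 tumor-gene UMIs, 786 as means over cells and 8 with the whole interval. Between Rgs5-positive and Rgs5-negative cells, the higher genes numbered 136 with at least 50 UMIs, 833 as means over cells and 107 with the whole interval, and the lower genes 283, 1259 and 173. The cause of the differences under the Col1a2 limit, the tumor-gene limit and the means over cells was not tested. The ratios of 23 genes to Col3a1-high tumor cells kept their direction in 272 of 276 alternatives. The other 4 were of Top2a, whose ratio of 1.07 was 0.952 with a mitochondrial limit of 10%, 0.965 with a Col1a2 limit of 10, 0.981 with a limit of 2 on Tyrobp and Fcer1g and 0.902 as a mean over cells. The ratios of 12 genes between Rgs5-positive and Rgs5-negative cells kept it in 155 of 156, and the Mgp ratio of 0.448 as a mean over cells reversed, the cause of which was not tested. Leaving out the deepest cell gave 914 higher and 141 lower genes against tumor cells. Depth limits what can be called lower, since the pooled 64 cells had 678480 UMIs and a floor of 4.42 CPM.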

Other observations

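Some shallow members were rich in Mgp. Of the 16 members with fewer than 1000 UMIs, 8 had at least 40 UMIs of Mgp per 10000, a group formed after these values were seen, as did 5 of the 48 deeper members. The 8 cells had 153 UMIs of Mgp in 5081 UMIs, a level fixed from below by their choice. In the same cells the ferritin gene Fth1 was at 205 per 10000 (167 to 248) against 23.2 in the deeper members, and the acute-phase genes Saa3 and Lcn2 at 140 (109 to 176) and 68.9 (48.0 to 95.8) against 14.9 and 0.509. Few cells carried Saa3: 53 of its 71 UMIs in the 8 cells were in 2 of them and 2 had 0, and 763 of the 996 UMIs in the deeper members were in 1 cell. The protease inhibitor gene Timp1 was at 61.0 (41.5 to 86.6) against 12.3 and the metal-binding gene Mt1 at 66.9 (46.3 to 93.5) against 14.6. The RNA Malat1 was also higher, at 163 (130 to 203) against 95.5 in the deeper members. Col3a1 was similar, at 92.5 (68.0 to 123) and 96.9, whereas Col1a1 at 23.6 (12.2 to 41.3), Col1a2 at 45.3 (28.7 to 67.9) and Sparc at 43.3 (27.1 to 65.6) were below the 75.7, 75.8 and 84.0 of the deeper members. The other shallow members were also lower in these 3 genes, at 38.6, 41.9 and 48.7. They had Malat1 at 28.5, Fth1 at 33.6, Saa3 and Lcn2 at 1.68 each, Timp1 at 0 and Mt1 at 13.4. Rhox5 had 0 UMIs in the 8 Mgp-rich cells and 4 in the other shallow members. Lgals1 and Tmsb4x of the Mgp-rich cells, at 27.6 (15.1 to 46.2) and 19.7 (9.44 to 36.2), were below the 71.6 and 49.8 of the deeper members. In the other shallow members these genes were not lower, at 93.96 (70.98 to 122) and 90.6 (68.1 to 118). Xist had 1 UMI in the 8 Mgp-rich cells, too few for a statement on their origin.

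Rgs5 was also found outside the rule. Of 83 cells with at least 1 UMI of Rgs5, 75 were outside it, and 8 of these had at least 2 UMIs and at least 5 per 10000, a limit set after the data were seen. They held 90 of all 810 Rgs5 UMIs, had between 718 and 7674 UMIs (median 1756.5) and did not meet the Col1a2 limits, with 3 UMIs in 2 cells. Of these, 1 was also above the limit on Tyrobp and Fcer1g, at 9.66 per 10000, and another had 4 UMIs of the endothelial gene Pecam1. Acta2 was found in 4 of them and Higd1b in 4. The deepest, of 7674 UMIs, had 40 UMIs of Rgs5, 13 of Kcnj8, 7 of Higd1b and 7 of Acta2, and 2 of Col1a2.

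Cell cycle genes were present in the members. Of 14 cycle genes 0 were at least 4 times higher or 0.25 or lower against Col3a1-high tumor cells. Over all genes tested the shares were 6.39% and 1.0%, so that count cannot set the list apart. The median ratio of the list was 1.16, against 1.08 over all genes. At least 3 UMIs of Mki67, Top2a, Cdk1, Birc5 and Ube2c together were found in 23 of 64 members (35.9%, 24.3% to 48.9%), 68.7% of Col3a1-high tumor cells and 23.7% of myeloid cells, groups whose median depths of 4602, 34090 and 7433.5 UMIs differ. Mki67 was at 161 CPM in the members, 77.9 in Col3a1-high tumor cells and 98.5 in myeloid cells. The part of depth and of free tumor RNA in these shares was not tested.

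The gene that the study knocks down in tumor cells was scarce in the members. Atp6v0a1 had 3 UMIs, a level of 4.42 CPM against 9.48 CPM in Col3a1-high tumor cells (0.466, 0.0956 to 1.38), and its interval spans 1. Of the 15 V-ATPase and sterol genes tested, 2 were at least 4 times higher, against 6.39% of all genes tested. These were Abca1 with 11 UMIs and Abcg1 with only 3, too few to set the list apart. The median of the list was 1.21, against 1.08 over all genes. Ch25h, an enzyme that hydroxylates cholesterol, had 19 UMIs, 18 of them in 1 Rgs5-positive cell.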
